A study of Mus musculus with 2 samples.

Results

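The genes of 10 proteins that coat, enlarge or help to form lipid droplets were examined in the inguinal fat pad, a subcutaneous white adipose depot, on 2 Affymetrix arrays. They were chosen by name: the 3 CIDE genes (Cidea, Cideb, Cidec), the 5 perilipin genes (Plin1 to Plin5) and the 2 fat storage-inducing genes (Fitm1, Fitm2). Each had 1 probe set, and together they made 10 of the 19938 genes named on the platform. One array held RNA of male mice lacking apolipoprotein E (ApoE-KO) and the other RNA of male littermates lacking both uncoupling protein 1 and apolipoprotein E (UCP1/ApoE-DKO, here DKO), so the loss of ApoE was common to both groups. All were on the C57BL/6J background, were kept at 23 °C, and ate a high-fat diet for 9 weeks from 9 weeks of age. RNA of 3 mice per genotype was pooled before hybridisation, so each genotype had 1 array, the spread between mice was not measured, and no difference below has a test or a replicate check.

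Lipid droplets store triglyceride under a single phospholipid layer. Perilipins sit on that layer and control how lipases reach the core, CIDE proteins gather where droplets touch and move lipid from the smaller to the larger one, and the FITM proteins of the endoplasmic reticulum act where droplets are born. White adipocytes, with 1 large droplet, rely on Plin1 and Cidec, whereas brown and beige adipocytes, with many small droplets among mitochondria, also make Cidea and Plin5.

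The members did not differ in one direction or by one amount. Cidea was 7.44-fold higher in the array labelled DKO, Plin5 2.87-fold, Plin2 2.38-fold and Cideb 2.36-fold, while Fitm1 was 3.17-fold lower. Cidec and Plin1 had nearly the same intensity on both arrays, and Plin3, Plin4 and Fitm2 differed by less than 2-fold. At least 2-fold higher values were thus found for 4 of the 10 members, beside 2.79% of the 9891 genes on or above the expression floor, and at least 2-fold lower values for 1 of 10, beside 0.698%. At 1.5-fold the counts were 4 higher and 2 lower, beside 7.57% and 3.73% of genes, and at 3-fold Cidea alone was higher and Fitm1 alone lower, beside 0.526% and 0.384%. The floor, an intensity of 196.9, is the median over named probe sets and not a detection limit. All 10 members had a mean on or above it, but Cideb on the array labelled ApoE-KO and Fitm1 on the array labelled DKO lay below it. With values below the floor raised to it, 3 members were at least 2-fold higher and 0 lower, beside 2.67% and 0.607% of genes. The median log2 difference (DKO minus ApoE-KO) of the 10 members was 0.45, against -0.01 over all genes on or above the floor. In whole tissue, a different number of cells of a type and a different amount of RNA per cell cannot be told apart.

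**Figure D1:**
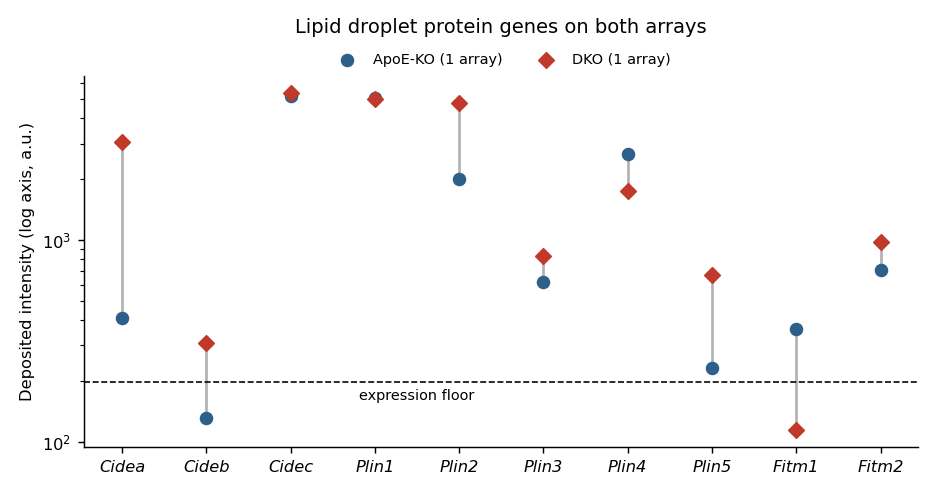
Deposited intensity (arbitrary units, log axis) of each lipid droplet protein gene on the array labelled ApoE-KO (circles) and the array labelled DKO (diamonds), 1 array of pooled RNA each, with the floor of 196.9 dashed. Heights are to be compared within a gene only. Cidea, Cideb, Plin2 and Plin5 sit higher on the array labelled DKO, Fitm1 and Plin4 sit lower, and the symbols of Cidec and Plin1 overlap.

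The arrays as a whole set the frame for these values. Their median intensities were 152.1 (DKO) and 157.65 (ApoE-KO) over 35557 probe sets, and the middle 90% of log2 differences on or above the floor lay between -0.52 and 0.76. Ucp1 read 2230 on the array labelled DKO and 219 on the array labelled ApoE-KO, which goes against the labels if its probe set reads the disrupted part of the gene. The sources used here do not say where those probes lie, so arrays are called by their labels and every direction rests on them. Mature adipocyte markers such as Adipoq and Fabp4, 12 of 14 of which were named here, were all above the floor on both arrays. Their median difference was 0.05, with a range from -0.43 (Rbp4) to 0.47 (Pparg). Of 22 skeletal muscle markers, 22 were lower on the array labelled DKO, with differences from -5.25 to -0.03. Among all genes on or above the floor, 51.8% had a difference of 0 or less. All 19 muscle markers with a mean on or above the floor were lower by at least 2-fold, beside 0.698% of genes. Most of the 19 met the floor through the array labelled ApoE-KO, since 17 of the 22 lay below it on the other. The summed intensity of the 22 was 3292 on the array labelled DKO and 46518 on the array labelled ApoE-KO. Of these markers, 0 read an intensity of 0.

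**Figure D2:**
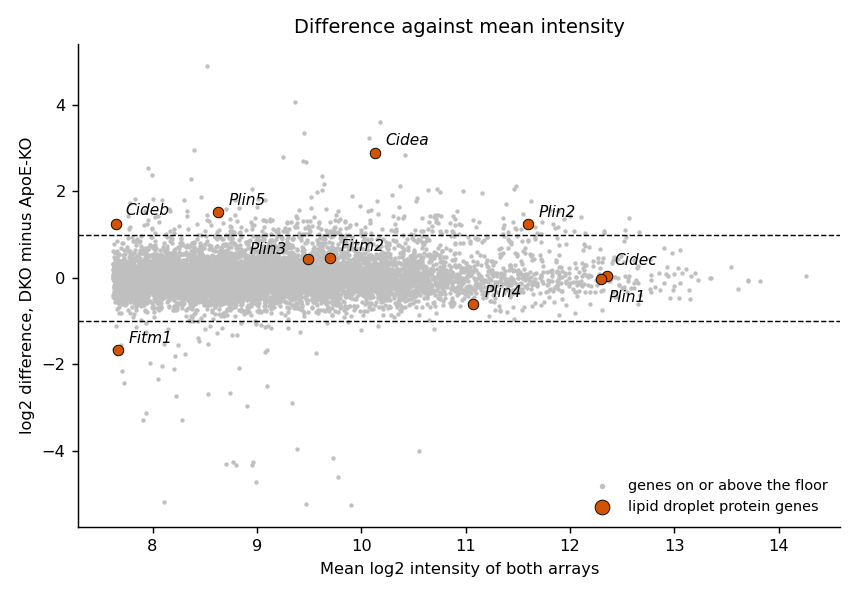
Log2 difference (DKO minus ApoE-KO) against mean log2 intensity of both arrays for the 9891 genes on or above the floor (grey) and the 10 members (orange), with dashed lines at 2-fold. Cidea lies at 2.90 above most of the cloud, Cideb and Fitm1 lie at the left edge next to the floor, and Cidec and Plin1 lie close to 0 among the brightest genes.

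The 3 CIDE genes separated. Cidea, the family member typical of brown and beige adipocytes, read 3053 on the array labelled DKO and 410 on the array labelled ApoE-KO. Only 7 of the 9891 genes, Cidea included, had a difference that high. Cidec, also called Fsp27, which builds the single large droplet of white adipocytes, read 5327 and 5145 in the same order, a difference of 0.05. The ratio of Cidea to its value on the other array was therefore 7.19 times that of Cidec. Cideb, best known from liver, where it serves lipoprotein loading and droplet growth, read 309 and 131. Its difference of 1.24 rested on a value below the floor and was 0.65, or 1.57-fold, when that value was raised to the floor. In RefSeq's gene records Cideb overlaps Nop9, a nucleolar protein gene, which differed by 0.08. The record of Cidea overlaps an uncharacterised RIKEN clone, B430212C06Rik, with a difference of 0.89 below the floor. Those of Plin4 and Fitm2 also overlap a neighbour each, with differences of -0.09 and, below the floor, 0.37. The sources used here do not say which strand each probe set reads.

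Among genes on or above the floor, the 4 closest to Cidea in both log2 difference and mean log2 intensity over these 2 arrays were Elovl6, Cox7a1, Phospho1 and Fabp3, at distances of 0.30, 0.34, 0.69 and 0.70. Their differences were 2.85, 3.23, 2.69 and 3.59. With 2 arrays a pattern is a single difference, so this likeness says only that these genes differed by a similar amount at a similar brightness. The 13 measured brown and beige adipocyte markers, Ucp1 among them, had a mean on or above the floor. On the array labelled ApoE-KO, 3 of them lay below it. All 13 were at least 2-fold higher on the array labelled DKO, beside 2.79% of genes. This list was chosen with earlier results of these data known. Prdm16 and Ebf2, brown and beige lineage regulators counted with the regulators of droplet genes, differed by 0.13 and -0.21. The summed intensity of the 13 was 31816 on the array labelled DKO and 5432 on the array labelled ApoE-KO. Their part in the difference of Cidea was not tested.

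Among the 5 perilipins, 2 were at least 2-fold higher and 0 at least 2-fold lower, beside 2.79% and 0.698% of genes. The median of the 5 was 0.43, against -0.01 over all genes on or above the floor. Plin1, which coats the large droplet of white adipocytes and holds back lipolysis until protein kinase A phosphorylates it, read 5019 on the array labelled DKO and 5070 on the other, a difference of -0.01. Its sign and that of Cidec (0.05) turned under some scalings, so neither has a direction in these data. Plin2, a coat protein of most cell types that is stable only when bound to a droplet, read 4779 and 2012, a difference of 1.25. Plin2 is also abundant in lipid-laden macrophages. Of 14 macrophage markers, 13 were lower on the array labelled DKO, though 0 by 2-fold or more. Among all genes on or above the floor, 51.8% had a difference of 0 or less. The summed intensity of the 14 was 9063 on the array labelled DKO and 13100 on the other array. The part of macrophage RNA in the value of Plin2 was not tested.

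Plin5, the perilipin of oxidative tissues that ties droplets to mitochondria, read 669 on the array labelled DKO and 233 on the other, a difference of 1.52. Both values lay above the floor, the second by a small margin. A difference at least as high was found in 63 of the 9891 genes. Skeletal muscle also makes Plin5, and the muscle markers were higher on the array labelled ApoE-KO. The part of muscle RNA in the difference of Plin5 was not tested. Plin4, which white adipocytes place on nascent droplets and which muscle fibres also make, read 1751 and 2656, a difference of -0.60 or 1.52-fold. It was the 1 perilipin at least 1.5-fold lower. The part of muscle RNA in the difference of Plin4 was not tested. Plin3, a cytosolic protein that moves onto new droplets in nearly all cells, read 833 and 618, a difference of 0.43 that 12.1% of genes reached or passed.

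Plin4, Plin5 and Plin3 lie on chromosome 17. Plin4 and Plin5 stand next to each other on the same strand with 0 measured genes between them, yet their differences were -0.60 and 1.52. On the far side of Plin5, Lrg1, which encodes a secreted leucine-rich glycoprotein, differed by -0.66. The 9 measured genes between Plin5 and Plin3 ranged from -0.66 to 0.34. Plin5 was thus the only gene at least 2-fold different in the stretch from Plin4 to Plin3. Fitm1 and Cideb share chromosome 14 with 16 measured genes between them, which ranged from -0.31 to 0.73 with a median of 0.02. The proteasome activator gene Psme1, beside Fitm1, differed by 0.09. Taking the 2 nearest measured genes on each side of all 10 members gave 36 other genes with a median of 0.07. Of the 24 on or above the floor, 1 was at least 2-fold different, the mitochondrial protease gene Afg3l2 near Cidea (1.18). Among all genes on or above the floor, 2.79% were at least 2-fold higher and 0.698% at least 2-fold lower.

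**Figure D3:**
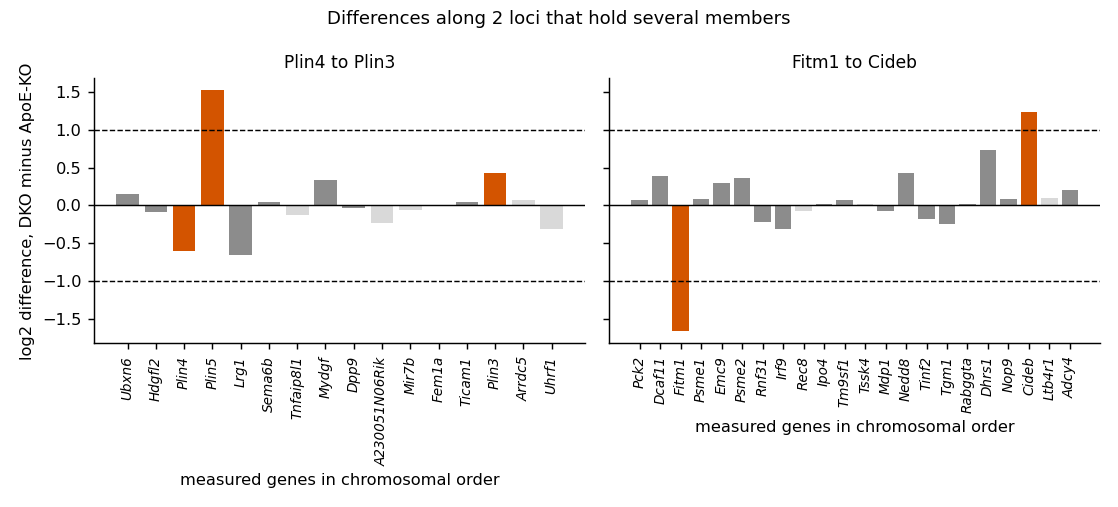
Log2 difference (DKO minus ApoE-KO) of measured genes in chromosomal order, from 2 genes before Plin4 to 2 after Plin3 and from 2 genes before Fitm1 to 2 after Cideb. Members are orange, other genes on or above the floor dark grey and genes below it light grey, with dashed lines at 2-fold; spacing does not show distance. Plin5, Fitm1 and Cideb pass 2-fold and the genes between the members do not.

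Promoter sequences are shown for 4 perilipins because Plin2 and Plin5 were both higher while Plin4, the neighbour of Plin5, and the white adipocyte gene Plin1 were not. RefSeq windows were found for 9 of the 10 members and not for Cidea. Those shown are the 250 bases before the RefSeq start, 5′ to 3′ on the gene's strand, which is the minus strand of GRCm38.p6 in each case. Capitals mark matches, on either strand, to the motifs searched. Plin5 lies at chr17:56117549-56117798, Plin4 at chr17:56109783-56110032, Plin2 at chr4:86670060-86670309 and Plin1 at chr7:79732777-79733026. The RefSeq record of each of these genes reaches into its window, so a start further upstream may also be annotated.
Plin5: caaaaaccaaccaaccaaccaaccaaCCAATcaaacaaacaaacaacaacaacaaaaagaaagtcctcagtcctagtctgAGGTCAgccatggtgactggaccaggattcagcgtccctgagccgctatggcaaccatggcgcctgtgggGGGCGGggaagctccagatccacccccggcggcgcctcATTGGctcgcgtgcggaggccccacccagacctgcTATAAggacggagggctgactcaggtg
Plin4: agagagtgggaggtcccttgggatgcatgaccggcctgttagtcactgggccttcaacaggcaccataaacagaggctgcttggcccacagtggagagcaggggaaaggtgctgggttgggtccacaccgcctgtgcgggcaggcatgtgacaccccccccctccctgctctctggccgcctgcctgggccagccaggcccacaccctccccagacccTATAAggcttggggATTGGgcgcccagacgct
Plin2: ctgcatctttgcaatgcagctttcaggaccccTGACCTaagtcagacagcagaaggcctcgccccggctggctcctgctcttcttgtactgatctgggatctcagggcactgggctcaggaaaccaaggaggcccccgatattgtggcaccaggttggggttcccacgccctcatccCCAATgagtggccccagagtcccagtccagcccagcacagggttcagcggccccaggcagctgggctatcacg
Plin1: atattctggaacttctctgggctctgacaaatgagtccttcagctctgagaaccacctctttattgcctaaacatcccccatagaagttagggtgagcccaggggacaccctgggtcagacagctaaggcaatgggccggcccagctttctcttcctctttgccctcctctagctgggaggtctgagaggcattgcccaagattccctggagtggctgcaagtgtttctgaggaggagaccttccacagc

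The search covered 8 motifs on both strands: the nuclear receptor half-site AGGTCA, its direct repeat with 1 base between copies as bound by PPAR and RXR, the oestrogen-related receptor element TCAAGGTCA, which contains the half-site, the E-box CACGTG, the cyclic AMP element TGACGTCA, the CCAAT box, the TATA box read as TATAA, and the GC box read as GGGCGG. The half-site lay 170 bases before the Plin5 start shown and 218 before that of Plin2, reading TGACCT in the latter. It was in none of the other members' windows and in 14.02% of all 32851 windows. TATAA lay 27 bases before the Plin5 start shown, 32 before that of Plin4 and 172 before that of Cideb. It was in 22.8% of windows. CCAAT was found in Plin2, Plin3, Plin4 and Plin5 and in 33.8% of windows. The GC box was found in Cideb, Fitm2, Plin3 and Plin5 and in 32.7% of windows. Another Plin5 window, at a different RefSeq start and not shown, held the GC box and no other motif searched. The Plin1 window held 0 of the 8 motifs. The direct repeat, the oestrogen-related receptor element, the E-box and the cyclic AMP element were in 0 of the 11 member windows and in 0.0335%, 0.387%, 6.02% and 1.55% of all windows. These matches describe letters in a short window and not binding sites.

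The 2 FITM genes differed in opposite directions. Both encode membrane proteins of the endoplasmic reticulum that bind triglyceride. Fitm1, made mainly by skeletal muscle and heart, read 114 on the array labelled DKO and 362 on the other, a difference of -1.67. The first value lay below the floor, and raising it to the floor left a difference of -0.88, or 1.84-fold. The muscle markers differed the same way: Atp2a1, the calcium pump of fast fibres, read 156 and 5900, and the fast myosin gene Myh4 read 116 and 4317. Of the 22 muscle markers, 17 lay below the floor on the array labelled DKO and 2 on the array labelled ApoE-KO. The part of muscle RNA in the difference of Fitm1 was not tested. Fitm2, the form made widely and in adipocytes, read 979 and 710, a difference of 0.46 that 10.97% of genes reached or passed.

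Other genes of the droplet differed by less than Cidea, Plin5 or Plin2. Of 12 droplet lipase and partner genes, 12 were higher on the array labelled DKO, 0 at least 2-fold, with a median of 0.24. Pnpla2, the lipase ATGL that starts triglyceride breakdown, differed by 0.12, and Lipe, the hormone-sensitive lipase, by 0.06. Abhd5, the ATGL activator that Plin1 and Plin5 bind, read 1468 and 1047, a difference of 0.49. The ATGL inhibitor gene G0s2 differed by 0.23, and Hilpda, another inhibitor, lay below the floor on both arrays (124 and 115). The largest differences in this list were those of the monoacylglycerol lipase gene Abhd6 (0.95) and Ldah, a droplet hydrolase (0.58), ahead of Abhd5. Ces1d, a triglyceride hydrolase, differed by 0.37.

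Triglyceride synthesis showed a similar spread, with 16 of 16 measured genes higher and a median of 0.41. Among all genes on or above the floor, 48.6% had a difference of 0 or more. Of the 14 synthesis genes on or above the floor, 0 were at least 2-fold higher or lower, beside 2.79% and 0.698% of genes. Dgat1 and Dgat2 both carry out the last step, and their differences were 0.69 and 0.12. Agpat2 (0.69) and Gpam (0.62), which act earlier in the pathway, and Pcyt1a (0.64), which supplies the phosphatidylcholine of the droplet surface, were the other largest. The 23 measured genes of droplet formation and contact with the endoplasmic reticulum had a median of 0.14. Of the 23, 0 were at least 2-fold higher or lower, beside 2.79% and 0.698% of genes. Bscl2, which encodes seipin of the droplet assembly site, read 2388 and 1612, a difference of 0.57, beside Tmem41b (0.59), Mfn2 (0.47) and Vmp1 (0.42). Of 20 other droplet surface genes, with a median of 0.10, 15 had a mean on or above the floor. Of those 15, 1 was at least 2-fold higher and 0 lower, beside 2.79% and 0.698% of genes. The gene at least 2-fold higher was Nsdhl (1.18), a sterol synthesis enzyme found on droplets. Hsd17b7 (0.91) and Lss (0.76) of the same pathway followed, or 0.68 and 0.60 when their lower values were raised to the floor. The median of the 20 was then 0.0007. Clstn3, whose locus also yields an adipocyte droplet protein from a separate transcript, lay below the floor on both arrays (114 and 120), and which transcript was read is unknown.

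Regulators known to act on droplet genes were mixed. Of 23 measured, 22 had a mean on or above the floor. Of those 22, 4 were at least 2-fold higher and 0 lower, beside 2.79% and 0.698% of all genes on or above the floor. The median of the 23 was 0.23. Ppara, the fatty acid receptor of oxidative tissues, read 1009 on the array labelled DKO and 243 on the other, a difference of 2.06. The coactivator genes Ppargc1a (660 and 244, a difference of 1.44) and Ppargc1b (1.23) were also higher, as was Esrrg (1.13, or 0.94 when its lower value was raised to the floor). Pparg, the master regulator of adipocytes and an activator of Plin1 and Cidec, differed by 0.47, Cebpa by -0.14, Esrra by 0.56 and Cebpb by 0.76.

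Of the remaining cell markers, the 10 B and T cell genes measured, 9 with a mean on or above the floor, had a median of -0.67. Of the 9, 3 were at least 2-fold lower, beside 0.698% of genes, with Ms4a1 (-1.16) and Cr2 (-1.11) the largest. The 8 fibroblast and progenitor genes had a median of -0.56 and 1 was at least 2-fold lower, Pi16 (-1.13), beside 0.698% of genes. The median of 7 endothelial genes was 0.02 and turned below 0 under quantile normalization. Epithelial genes had 1 of 7 members on or above the floor (Krt8, 0.14). Hepatocyte genes, listed because Cideb is a liver gene, had 2 of 6 on or above the floor, Alb (837 and 417, a difference of 1.01) and Apoa2 (0.58).

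**Figure D4:**
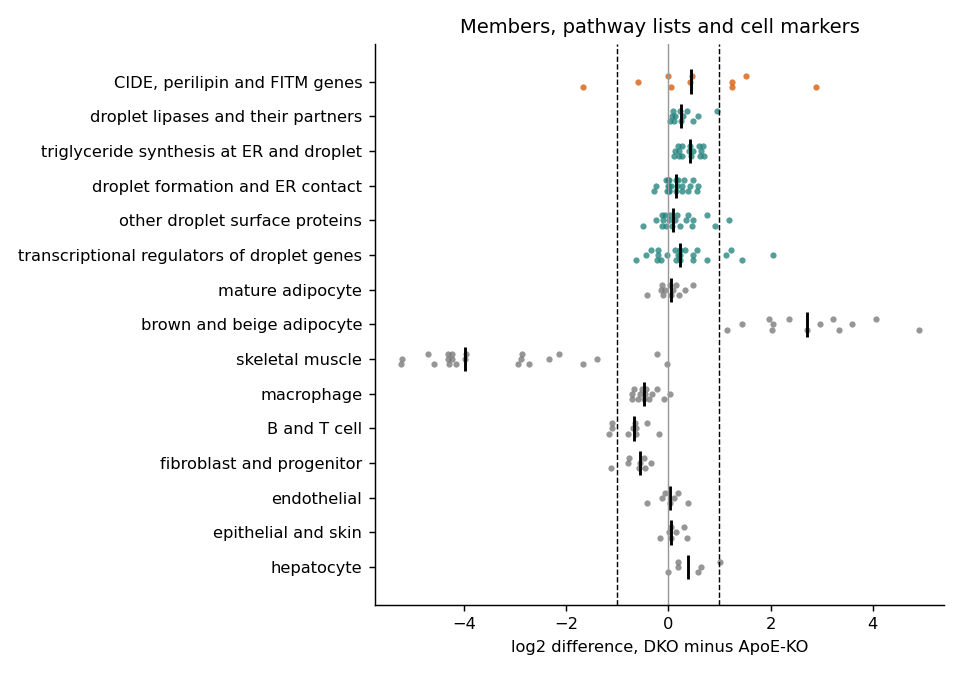
Log2 difference (DKO minus ApoE-KO) of every measured gene in the lipid droplet protein group (orange), 5 lists of droplet-related genes (green) and 9 lists of cell markers (grey), each point 1 gene, bars the list medians and dashed lines 2-fold. The 10 members spread from -1.67 to 2.90 around a median of 0.45, and the brown and beige list (median 2.71) and skeletal muscle list (median -3.98) lie apart from 0 on opposite sides.

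Other ways of processing the values moved most members little. Cidea stayed between 2.75 and 2.95, Plin5 between 1.34 and 1.57, Plin2 between 1.20 and 1.30 and Plin4 between -0.66 and -0.55 over 6 alternatives. Cideb ranged from 0.65 to 1.29 and Fitm1 from -1.67 to -0.88, and both came under 2-fold with values below the floor raised to it.

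**Figure D5:**
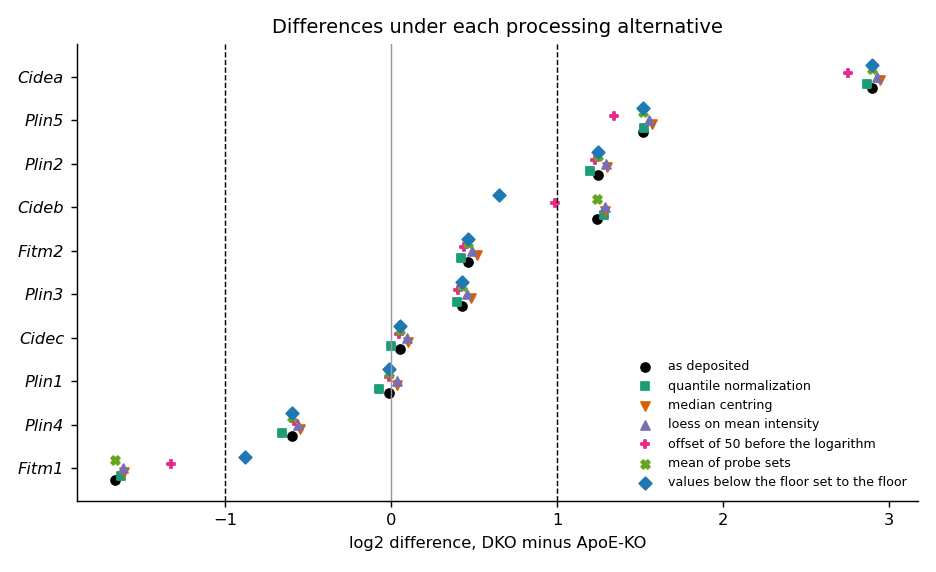
Log2 difference (DKO minus ApoE-KO) of each member as deposited and under 6 processing alternatives (symbols), with a grey line at 0 and dashed lines at 2-fold. Cidea, Plin5 and Plin2 stay above 2-fold in every setting shown, whereas Cideb and Fitm1, each with 1 value below the floor, come inside it.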

How the data were processed

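Per the labels' protocols, RNA came from Trizol extraction and the target was biotin-labelled DNA fragments. The RNA of 3 mice per genotype was pooled for 1 array. The authors deposited 1 linear intensity per probe set and array (3.55 to 23635.7). The sources used here do not give the background correction, summarisation or scaling. No detection calls came with the values, and the number of arrays limits precision.

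Differences are log2 intensity, without an offset, on the array labelled DKO minus that on the other array. The platform annotation gave 1 symbol for 21789 of 35557 probe sets. It gave several for 1621, which were not used, and 12147 stay unnamed here. Of the 21789, 21698 matched RefSeq (GRCm38.p6), which changed 0 symbols, and listed genes under an older symbol were found through its synonyms. A gene with several probe sets was represented by the brightest. The floor was the median of mean log2 intensity over named probe sets (7.62).

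With 1 array a group there was no test, and a difference was called by size (2-fold). Named genes were all members, Ucp1 and Apoe, 15 fixed partner genes, up to 3 further genes per pathway list and 2 per marker list with the largest absolute differences above the floor, neighbours that were members or at least 2-fold different, and the 4 genes most like Cidea. Other names were chosen after their values were seen. They were Adipoq and Fabp4 as examples, Prdm16 and Ebf2 as lineage regulators, and Psme1, Lrg1, Nop9 and B430212C06Rik for their place beside members. Apoe, disrupted in both groups, read 502 (DKO) and 589 (ApoE-KO). Ldaf1, a fixed partner, was not named here. Members and lists were chosen with earlier results of these data known. Calculations used Python 3.11.15 with pandas 2.3.3, numpy 2.4.6 and statsmodels 0.14.6. The size rule was tested on simulated data with planted changes and an assumed noise, which cannot give its error on these arrays.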

Additional observations from a re-analysis of the deposited data

How the results depend on the processing

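No paired analysis was possible because each genotype had 1 array. The alternatives were quantile normalization, median centring, loess (span 0.4), an offset of 50, the mean of probe sets, and values below the floor raised to it. Of 60 member values, 54 kept their direction and their side of 2-fold. The mean of probe sets could not change a member, since each has 1. Cideb came under 2-fold with the offset (0.99) and with values raised to the floor (0.65), and Fitm1 with values raised to the floor (-0.88). Cidec turned to -0.0020 under quantile normalization, and Plin1 turned to 0.037 under median centring and 0.032 under loess. The count of members at least 2-fold higher, 4, became 3 with the offset and 3 with values raised to the floor. It became 1 at 3-fold and 2 with the floor at percentile 75. The count lower, 1, became 2 at 1.5-fold, 0 with the floor at percentile 75 and 0 with values raised to the floor. The threshold and floor settings move counts by construction. The median of the members stayed within 1.5-fold of 0.45 in all 7 settings. Of 112 values of the 14 lists, 107 kept their direction and moved by under 1.5-fold. With values raised to the floor, the epithelial and hepatocyte medians became 0. The muscle median became -3.25 with values raised to the floor and -3.30 as a mean, and the endothelial median turned to -0.0067 under quantile normalization.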
